A study of Mus musculus with 6 samples.

Results

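Mean levels of the microRNA families miR-101, miR-140, miR-872 and miR-501 were lower with vesicles of SIX2-overexpressing microglia than with control vesicles. The members were chosen with that difference known, by matching the deposited names of all arms and isoforms of these families. The match found 8 of 756 features, where a feature is a name with its sequence, and the 8 features hold 7 distinct sequences. Scaled to mature miRNA reads, the libraries of both groups overlapped for miR-140-5p, miR-872-3p and miR-501-5p. The small RNA came from cells whose labels name Mes23.5, a hybrid dopaminergic line of mouse neuroblastoma and rat midbrain origin. The cells of all 6 libraries had been exposed for 24 h to LPS, a component of bacterial cell walls. In 3 libraries the cells had been given extracellular vesicles from microglia overexpressing SIX2, a transcription factor (SIX2_EV), and in 3 they had received vesicles of control microglia (control_EV). Another label, the growth protocol, speaks of BV2 microglia instead, so which line was sequenced cannot be told from the labels. The labels also do not state whether the 3 libraries of a group are separate cultures.

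A microRNA is cut from a hairpin transcript whose 5′ and 3′ arms can each give a mature strand of about the length of the sequences below. The strand is loaded into an Argonaute protein and pairs with target messages mainly through its seed, bases 2 to 8, so a shift of the 5′ end changes the seed. miR-101 is known for targeting Ezh2, a histone methyltransferase, and is present in many tissues. miR-140 is best known from cartilage, and its hairpin lies within Wwp2. The hairpin of miR-501 lies in an intron of Clcn5 beside several related hairpins, and that of miR-872 in an intron of Ift74.

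The sequences are shown because for miR-101 a single sequence stands under 2 names, deposited as rno-miR-101a-3p_R+1 and rno-miR-101b-3p_R+1_1ss16GA, and because the seed of miR-140-3p, deposited as rno-miR-140-3p_L-1R+2, differs from the annotated one. The other members, rno-miR-872-5p among them, and the relatives they are compared with follow. Sequences are as deposited unless the line says otherwise, and capitals mark bases 2 to 8.
miR-101a-3p and miR-101b-3p: tACAGTACtgtgataactgaag
miR-101b-3p as annotated in rat: tACAGTACtgtgatagctgaa
miR-101c: tACAGTACtgtgataactgat
miR-144-3p: tACAGTATagatgatgtact
miR-140-3p: aCCACAGGgtagaaccacggac
miR-140-3p as annotated in rat: tACCACAGggtagaaccacgg
miR-140-5p: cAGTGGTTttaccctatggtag
miR-501-3p: aATGCACCcgggcaaggatttgg
miR-500-3p: aATGCACCtgggcaagggttcagt
miR-501-5p: aATCCTTTgtccctgggtgaaaatgc
miR-872-5p: aAGGTTACttgttagttcagg
miR-872-3p: tGAACTATtgcagtagcctcct

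The features named miR-101a-3p and miR-101b-3p carry the same 22 bases. The sequence extends the annotated miR-101a-3p by 1 base at the 3′ end, and it differs from the rat miR-101b-3p by G16A, counted from 1 at the annotated 5′ end. It occurs without mismatch in the Mir101a hairpin of GENCODE M21, and with the same 1 mismatch, G16A, in the Mir101b hairpin. The reads of both names were equal in each of the 6 libraries (largest difference 0.0 reads), so the deposited values are 1 set of reads divided evenly between 2 names. All 3 features that begin with the first 15 bases of this sequence, miR-101c included, have the base of miR-101a at position 16. The levels below therefore add both names and call the sum the miR-101 sequence. miR-101c, which the match did not include, shares its first 20 bases with the miR-101 sequence and then differs by A21T. It has 1 mismatch to the Mir101a hairpin (A21T) and 1 to the Mir101c hairpin (C1T, counted along the read), so its hairpin of origin could not be told from these matches.

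The deposited miR-140-3p lacks the first annotated base and has 2 more bases at the 3′ end. Its bases 2 to 8 read CCACAGG, where the annotated strand, in rat and in RefSeq's mouse entry (GRCm38.p6), has ACCACAG. The table lists 1 sequence for this arm, and the sources used here do not say whether reads with other ends were counted with it. Both miR-872 strands matched the RefSeq mouse entries end to end. miR-501-3p matched the rat entry and is 1 base longer than the mouse entry, while miR-501-5p is 6 bases longer than the rat entry. Of the 7 member sequences, 6 had a mouse RefSeq entry of the same name.

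The deposited hairpin positions are in a build that the sources used here do not name. They are chr4:101204142-101204224 on the minus strand for miR-101a, chr19:29112679-29112775 on the plus strand for miR-101b and chr8:108277857-108277968 on the plus strand for miR-140. miR-872 was placed at chr4:94553394-94553474 on the plus strand and miR-501 at chrX:7107482-7107590 on the minus strand. In GENCODE M21, which uses GRCm38 and whose positions differ from these, Mir101a overlaps an exon of a long non-coding RNA gene and Mir101b lies in an intron of Rcl1, each on the same strand. Mir140 overlaps an exon of at least 1 annotated Wwp2 transcript, Mir872 lies in an intron of Ift74 and Mir501 in an intron of Clcn5, all on the same strand as the host. Within the annotation the host genes of these hairpins are all different.

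The libraries differed in make-up before any member is considered. Deposited reads ranged from 179621 to 232635 in SIX2_EV and from 253037 to 421279 in control_EV. Mature miRNAs, meaning names with a mouse hairpin, took 6.78% to 32.65% of those reads in SIX2_EV and 31.5% to 70.8% in control_EV. Levels are therefore given as deposited RPM, the reads in each 1000000 deposited reads, and as mature RPM, the reads in each 1000000 mature miRNA reads. The denominator of the latter is 24937, 15781 and 60135 reads for the SIX2_EV libraries and 81138, 143522 and 298422 for those of control_EV. The third library of each group also held 7.94% and 7.47% of sequences named mir-1285, against at most 0.447% in any other library, so means over replicates 1 and 2 alone are given beside the main members.

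The miR-101 sequence was the most abundant of the members. It had 509, 381 and 941 reads in the SIX2_EV libraries and 2435, 4426 and 7401 reads in the control_EV libraries. These are 2834, 1638 and 5108 deposited RPM in SIX2_EV and 9452, 17491 and 17568 in control_EV. All SIX2_EV libraries lay well below all control_EV libraries on this scale, and the mean was 4.65-fold lower (3193 ± 1763 against 14837 ± 4664, SD, n = 3). In mature RPM the levels were 20412, 24142 and 15648 in SIX2_EV and 30010, 30838 and 24800 in control_EV. The groups still did not overlap, but the means were only 1.42-fold apart (20067 ± 4258 against 28550 ± 3273, SD, n = 3). The gap was narrow: the highest SIX2_EV library had 2.41% of mature reads (Wilson 95% interval 2.19 to 2.67) and the lowest control_EV library 2.48% (2.42 to 2.54), and those intervals overlap. The third library was the lowest of its group on the mature scale in both groups, and the means of replicates 1 and 2 alone were 22277 mature RPM in SIX2_EV and 30424 in control_EV.

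miR-140-3p, the main strand of miR-140, had counts of 100, 95 and 310 in SIX2_EV, and of 596, 1012 and 2176 in control_EV. In mature RPM it stood at 4010, 6020 and 5155 in SIX2_EV and at 7345, 7051 and 7292 in control_EV. The 3 control libraries were within a narrow range and all SIX2_EV libraries lay below them, with means of 5062 ± 1008 and 7229 ± 157 (SD, n = 3), 1.43-fold lower in SIX2_EV. Against all deposited reads the means were 883 ± 697 and 3826 ± 1434 deposited RPM (SD, n = 3), 4.33-fold lower. In the third libraries alone the mature-scale levels were 5155 and 7292, and in replicates 1 and 2 the means were 5015 and 7198.

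The other strand, miR-140-5p, is the one usually described in cartilage. It had counts of 11, 9 and 30 in SIX2_EV, and of 34, 86 and 313 in control_EV. In mature RPM it stood at 441, 570 and 499 in SIX2_EV and at 419, 599 and 1049 in control_EV. The groups overlapped, and the higher control mean (689 ± 324 against 503 ± 64.7, SD, n = 3) rested on the third control library. In replicates 1 and 2 alone the means were 506 in SIX2_EV and 509 in control_EV.

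The balance between both miR-140 strands was measured within each library and does not depend on a denominator. miR-140-3p made up 90.1%, 91.3% and 91.2% of miR-140 reads with SIX2_EV and 94.6%, 92.2% and 87.4% in control_EV. The group means were 90.9% ± 0.682 and 91.4% ± 3.65 (SD, n = 3), so they differed by less than the spread between the control libraries. The third control library had the lowest share (Wilson interval 86.06 to 88.7%) and the first the highest (92.6 to 96.1%), and those intervals do not overlap.

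miR-501-3p had the largest difference among the members listed in every library. It had 5 to 30 reads in the SIX2_EV libraries and 85 to 256 in those of control_EV. In mature RPM these are 481, 317 and 499 in SIX2_EV and 1048, 989 and 858 in control_EV. No libraries of the groups overlapped, and the mean was 2.23-fold lower in SIX2_EV (432 ± 100.4 against 965 ± 97.2, SD, n = 3). In replicates 1 and 2 alone the means were 399 and 1018 mature RPM, and in the third libraries 499 and 858. Against all deposited reads it was 5.97-fold lower (83.7 ± 72.2 against 499.6 ± 149 deposited RPM, SD, n = 3). The counts in SIX2_EV were few: at the control mean per mature read, 24.1, 15.2 and 58.03 reads would have been found in these 3 libraries. The Wilson interval of the first SIX2_EV library (12 reads, 0.0275 to 0.0841% of mature reads) overlapped that of the third control_EV library (0.0759 to 0.09695%). Its partner miR-501-5p was listed in 1 library, the third control_EV, with 6 reads.

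In none of the 3 SIX2_EV libraries was miR-872-5p listed above 0, while the control_EV libraries had 52, 56 and 93 reads of it. Against all deposited reads the control levels were nearly equal, at 202, 221 and 221 deposited RPM, while in mature RPM they were 641, 390 and 312 (a mean of 516 in replicates 1 and 2). The table lists few values under 5 reads (31 of 2410 values above 0 per sequence and library), so a value of 0 was bounded with 5 reads per library. On that bound the SIX2_EV level of miR-872-5p was at least 8.42-fold lower in deposited RPM, but at least 2.24-fold lower in mature RPM. The depth of mature reads limits what this 0 can show. At the mean control level per mature read, 11.2, 7.06 and 26.9 reads would have been found in the SIX2_EV libraries, and at the lowest control level 7.77, 4.92 and 18.7. In the second SIX2_EV library the lowest control level was thus not detectable under a listing limit of 5 reads. miR-872-3p had counts of 0, 0 and 5 in SIX2_EV, and of 0, 7 and 32 in control_EV, and its groups overlapped. In the third SIX2_EV library miR-872-3p was listed, with 5 reads, and miR-872-5p was not. The Wilson interval of the 5p share there was 0.0 to 43.4%, and fewer than 5 reads of miR-872-5p could have gone unlisted. In control_EV the 5p strand made up all miR-872 reads of the first library, 88.9% of the second's and 74.4% of the third's. So few reads cannot show whether the balance of strands differed.

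**Figure D1:**
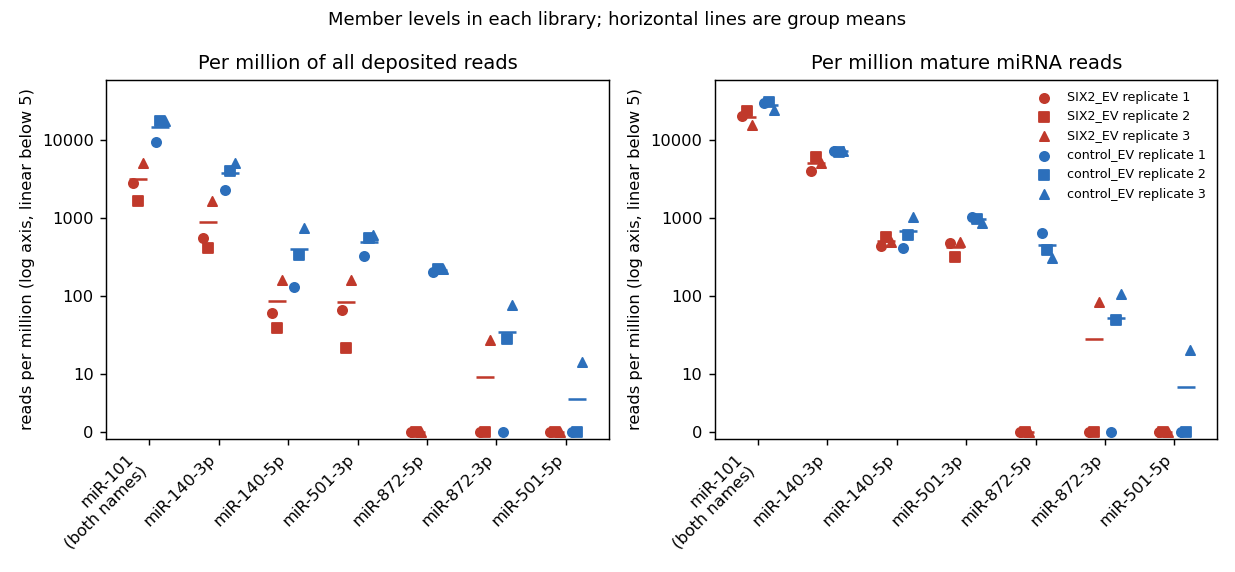
Level of each member sequence in each library, in deposited RPM (left) and mature RPM (right), on a log axis that is linear below 5; red marks SIX2_EV, blue control_EV, symbols the replicate and lines the group mean. For miR-101, miR-140-3p and miR-501-3p the groups lie farther apart on the left than on the right, where miR-101 means are 20067 and 28550; miR-140-5p, miR-872-3p and miR-501-5p overlap in both panels, and miR-872-5p is at 0 in every SIX2_EV library.

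Members were ordered by their reads, which is an order of read counts, since how well each sequence was ligated and amplified was not tested. By mean CPM (RPM of the TMM-scaled library size, TMM being the scaling of the fit that follows), each miR-101 name ranked 22 of 384 mature features in SIX2_EV and 10 in control_EV, and miR-140-3p ranked 44 and 30. miR-140-5p ranked 130 and 125, miR-501-3p 136 and 106, and miR-872-3p 249 and 256. miR-872-5p and miR-501-5p were listed at 0 in SIX2_EV; in control_EV miR-872-5p ranked between miR-140-5p and miR-872-3p, and miR-501-5p ranked 347. In mature RPM the miR-101 sequence stood above miR-140-3p in every library, and miR-140-3p above all other members. Levels of miR-501-3p and miR-140-5p overlapped in both groups, so their order is not beyond the spread. In control_EV the order of miR-140-5p (419 to 1049) and miR-872-5p (312 to 641) is likewise within the spread.

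A fit across all features placed the members among the rest. edgeR's quasi-likelihood test with TMM scaling was run on the 319 features that passed its filter on low counts, and 6 of the 8 members (5 of 7 sequences) were among them. miR-501-5p and miR-872-3p did not pass, and miR-872-5p passed only through its control libraries. By that test 0.0% of features were called at an adjusted p of 0.05 (0 of 319), with 39 at an unadjusted p under 0.05, of which the lower ones in SIX2_EV were 6.58% of all tested. limma-voom called 0 (62 unadjusted) and DESeq2 called 20 (54 unadjusted), with 2.19% called lower. No p is given for the members, since they were chosen from this contrast. The log2 fold change of SIX2_EV over control_EV was -0.88 (SE 0.27) for each miR-101 name, -0.85 (SE 0.26) for miR-140-3p, -0.75 (SE 0.62) for miR-140-5p and -1.47 (SE 0.57) for miR-501-3p. With every SIX2_EV library below every control_EV library as the criterion, 5 of the 6 tested members, or 4 of 5 sequences, met it in CPM, beside 16.9% of all 319 tested features and 23.3% of the 210 tested mature features. On mature reads the same 4 sequences met it, beside 9.4% of all tested features and 11.9% of tested mature features, and on all deposited reads beside 28.8% and 37.1%. The members were chosen on this difference, so nothing follows from their count.

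The members' fold changes lay within the range of other mature miRNAs. With all deposited reads as the library size, 97.1% of the 210 tested mature features had a negative value, with a median log2 fold change of -1.73. Against that median stood -2.22 for each miR-101 name, -2.12 for miR-140-3p, -2.21 for miR-140-5p and -2.57 for miR-501-3p. With mature reads as the library size the median was -0.13 and 58.6% were negative. The values were then -0.51 for each miR-101 name and for miR-140-3p, -0.46 for miR-140-5p and -1.15 for miR-501-3p. On that scale 76 of the 210 mature features had a lower value than miR-101, 74 a lower value than miR-140-3p and 30 a lower value than miR-501-3p. miR-872-5p was 1 of 4 tested mature features listed at 0 in all SIX2_EV libraries, and no tested mature feature was listed at 0 in all control_EV libraries. The SIX2_EV libraries held fewer mature reads (15781 to 60135) than those of control_EV (81138 to 298422). With the listing limit of 5 reads a 0 was thus easier to reach in SIX2_EV, and nothing follows from these counts.

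**Figure D2:**
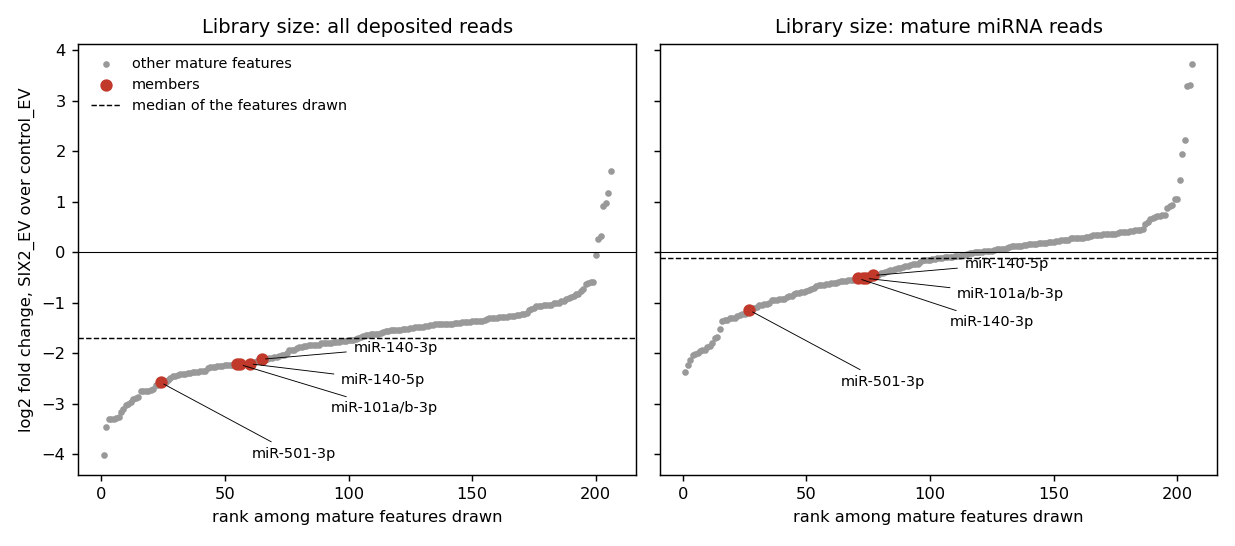
Log2 fold change (SIX2_EV over control_EV) of each tested mature feature that was not at 0 in all SIX2_EV libraries, in rank order, with all deposited reads (left) or mature miRNA reads (right) as the library size. Red points are members and the dashed line is the median of the features drawn; members lie at -2.12 to -2.57 on the left and at -0.46 to -1.15 on the right, below the median in both panels but not at the low end.

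The definition of a mature read bears on these sizes. If names with no mouse hairpin are also counted as mature, they make up 45.5%, 74.5% and 13.7% of mature names in SIX2_EV and 15.3%, 5.18% and 3.54% in control_EV, and the cattle-named miR-11987 was the greater part of these reads in every library but the third control_EV library, where it made up 1.102% of all mature names. On that wider denominator the miR-101 sequence was 2.55-fold lower (10266 ± 3742 against 26198 ± 2742 RPM of all mature names, SD, n = 3), miR-140-3p 2.44-fold lower and miR-501-3p 3.43-fold lower in SIX2_EV. miR-21-5p, the most abundant mature miRNA, showed how much the denominator alone can move a value. Its SIX2_EV mean was 2.66-fold lower against all deposited reads and 1.504-fold lower against all mature names. Against mature names with a mouse hairpin it stood at 19.9% ± 3.70 in SIX2_EV and 19.03% ± 1.32 in control_EV (SD, n = 3). The miR-101 sequence took 2.01% ± 0.426 and 2.85% ± 0.327 of the same reads (SD, n = 3).

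**Figure D3:**
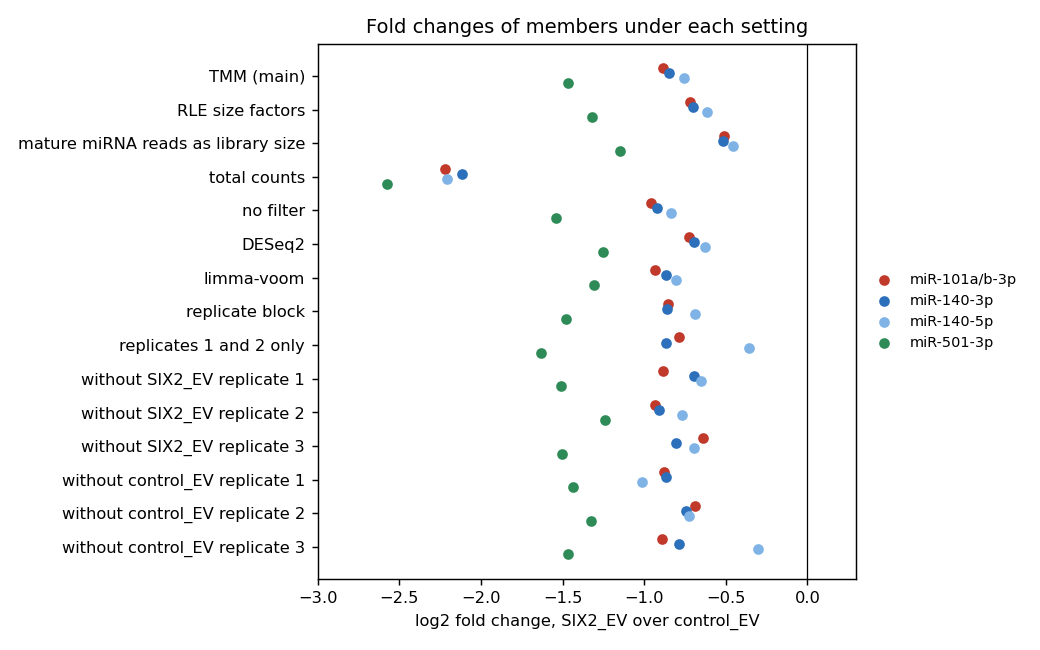
Log2 fold change (SIX2_EV over control_EV) of miR-101, miR-140-3p, miR-140-5p and miR-501-3p under each scaling, tool and left-out library; each point is 1 fitted value. Every point lies below 0, but the members were chosen for being lower in SIX2_EV, so nothing follows from the shared sign. Total counts give the lowest values, and miR-140-5p moves closest to 0, at -0.31, without the third control_EV library.

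Other miRNAs with the same or a nearly equal seed were compared by level. miR-101c, with bases 2 to 8 equal to those of miR-101, had counts of 8, 0 and 15 in SIX2_EV, and of 26, 34 and 86 in control_EV. In mature RPM it stood at 321, 0 and 249 against 320, 237 and 288, and the groups overlapped. miR-144-3p, a miRNA of red blood cells, shares bases 2 to 7 with miR-101 and differs at base 8. It had counts of 160, 105 and 285 in SIX2_EV, and of 554, 858 and 2041 in control_EV, or 5936 ± 1043 and 6548 ± 494 mature RPM (SD, n = 3). Its groups overlapped on the mature scale, and its log2 fold change with TMM was -0.48 (SE 0.21). miR-500-3p, which shares bases 2 to 8 with miR-501-3p, was listed only in the third control_EV library, with 25 reads. miR-362-5p shares bases 2 to 7 with miR-501-5p and had counts of 0, 0 and 11 in SIX2_EV, and of 6, 18 and 90 in control_EV. No other listed feature had the same bases 2 to 8 as a member.

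The miRNAs of the Clcn5 intron were examined as neighbours of miR-501 by annotation. Whether they came from the same transcript here was not tested. The list was matched by name and includes bta-miR-660 and cgr-miR-532-5p_R+2, which have no mouse position. Of 10 listed features, 3 passed the filter. Of these, 1 is miR-501-3p itself, which was chosen for its difference, so the neighbours tested are miR-362-5p and miR-532-5p. Neither passed the test by edgeR, which called 0 of all 319 tested features, so this says nothing particular about them. miR-501-3p was the member of this group with the most reads in every control_EV library. miR-532-5p had counts of 21, 13 and 34 in SIX2_EV, and of 37, 100 and 237 in control_EV, or 744 ± 154.7 and 649 ± 174 mature RPM (SD, n = 3). In SIX2_EV miR-532-5p thus stood above miR-501-3p in every library, and in control_EV below it. The log2 fold change of miR-532-5p was -0.16 (SE 0.56) with TMM and 0.19 on mature reads. That of miR-362-5p was -1.34 (SE 1.42) with TMM and -1.18 on mature reads. The medians on these 2 scales were -0.43 and -0.13 over the 210 tested mature features, and -0.30 and 0.03 over all 319 tested features. The other 7 features had at most 6 reads in any SIX2_EV library.

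The features with the most similar profiles over the 6 libraries were found by the root mean square distance between centred log2 CPM values. Nearest to miR-101a-3p among 220 candidates were miR-148b-3p at a distance of 0.06, miR-106b-5p at 0.14 and the hypoxia miRNA miR-210-3p at 0.18, where the median distance was 0.84. The CPM of miR-148b-3p were 419.6 ± 53.7 with SIX2_EV and 765 ± 154 with control_EV (SD, n = 3). Nearest to miR-140-3p among 221 candidates were miR-106b-5p at 0.19, miR-107-3p at 0.23 and miR-181b-5p at 0.24 (median 0.75). Profiles near miR-501-3p were farther off, with miR-19a-3p at 0.32, miR-140-3p at 0.46 and miR-132-3p at 0.47 (median 0.95). miR-501-3p had only 12, 5 and 30 reads in the SIX2_EV libraries, and the part of counting error in these distances was not tested. The profiles come from the same 6 libraries and 1 scaling, and the members were picked for a low level in SIX2_EV, so closeness in these values is a description only.

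**Figure D4:**
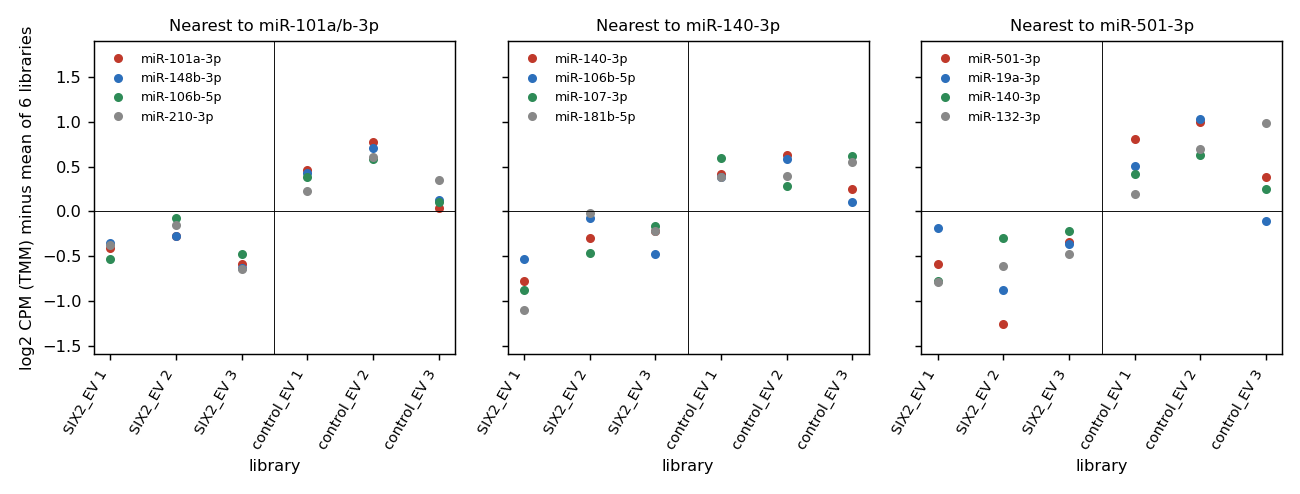
Log2 CPM (TMM) of miR-101a-3p, miR-140-3p and miR-501-3p (red) and of the 3 features nearest to each, minus each feature's mean over the 6 libraries; each point is 1 library. The points of miR-148b-3p lie almost on those of miR-101a-3p (distance 0.06), while those near miR-501-3p scatter more (0.32 to 0.47). miR-501-3p had only 12, 5 and 30 reads in the SIX2_EV libraries.

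Lists of other miRNAs were set beside the members. Of LPS-responsive miRNAs, 8 tested features had a median log2 fold change of -0.70 with TMM (8 of 8 negative, beside 79.5% of tested mature features) and -0.49 on mature reads (4 of 8 negative, beside 58.6%), and 0 passed the test. Among them miR-146a-5p, induced by inflammatory signals, stood at 115539 ± 20247 and 99237 ± 24994 mature RPM in SIX2_EV and control_EV, and miR-132-3p at 573 ± 56.6 and 1152 ± 419.6 (SD, n = 3). Neuronal markers were few: of 5 listed features 3 were tested, with a median of -0.74 with TMM and -0.60 on mature reads. Their summed level was 8662 to 11108 mature RPM in SIX2_EV and 8629 to 9225 in control_EV, most of it miR-7a-5p, and the defining miR-124-3p was not among the names found. Leukocyte and microglial markers summed to 14998 to 19772 and 16193 to 22589 (5 tested, median -0.67 with TMM and -0.41 on mature reads), and red blood cell markers to 50794 to 89566 and 32534 to 85419 (3 tested). The median of the red blood cell markers was -0.35 with TMM but 0.07 on mature reads. Mesenchymal markers, listed because cells of that lineage are known for miR-140, summed to 8431 to 11701 in SIX2_EV and 7982 to 8714 mature RPM in control_EV (3 tested), and their median was -0.05 with TMM but 0.29 on mature reads. No miRNA of these lists passed the test by edgeR, which called 0 of all 319 tested features, so nothing particular to the lists follows. The part of these markers, or of the mature share, in the members' values was not tested. miR-155-5p and miR-223-3p are on both the LPS-responsive and the leukocyte list, and 2 of the tested mesenchymal features are names of miR-199a-3p with equal values. The labels describe a cultured line, so these sums are levels of the listed miRNAs and not a measure of how many cells of a type were present. Where the reads of these markers came from was not tested.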

How the data were processed

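Total RNA (Trizol) went into TruSeq small RNA libraries, and the ACGT101-miR program filtered out adapter dimers, low-complexity and junk reads, repeats and other RNA families, per the labels' protocols. The sources used here name no build, miRBase release or mapping settings. The authors deposited estimated counts (raw) per sequence and locus, split over loci, and a normalized signal that equals the counts times 1 factor per library, per the file headers and values; the deposited signal was not used. Rows of the same name and sequence were summed and rounded, giving 756 features from 823 rows. Of the feature values above 0, 89.8% were whole within 0.05.

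Mature features are miR or let names with a mouse position and a mouse hairpin among those listed. The fit used edgeR 4.0.16 (R 4.3.3), TMM, filterByExpr and Benjamini-Hochberg adjustment over all 319 tested features. DESeq2 1.42.0 and limma 3.58.1 served as alternatives. The edgeR fit was also run on simulated counts drawn from the mean control_EV composition with set changes. That run does not show how the fit behaves when groups differ in make-up as they do here. Wilson intervals (95%) reflect counting error alone, and p-values reflect only how much these libraries vary, possibly for technical reasons. Members, lists and rules were chosen with earlier results of these data known. The rule named all matched features, features sharing a member's seed, the miRNAs of the Clcn5 intron, LPS-responsive and cell type lists, and the 3 tested features of at least 100 CPM nearest in profile to 3 members. miR-9a-5p and miR-21-5p were taken for miR-9-5p and miR-21a-5p.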

Additional observations from a re-analysis of the deposited data

How the results depend on the processing

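All fitted log2 fold changes of miR-101a-3p, miR-101b-3p, miR-140-3p, miR-140-5p and miR-501-3p were negative under every alternative run. With total counts they were -2.22, -2.22, -2.12, -2.21 and -2.57. The members were chosen for being lower in these same libraries, so nothing follows from the shared sign. Of the tested mature features, 79.5% were negative with TMM, 97.1% with total counts and 58.6% with mature reads as the library size. With mature reads as the library size the values of miR-101a-3p, miR-101b-3p and miR-140-3p were -0.51. The other alternatives moved these values by less than the spread between replicates, except leaving out control_EV replicate 3 for miR-140-5p (-0.31). Leaving out 1 library at a time gave -0.93 to -0.64 for each miR-101 name, -0.91 to -0.70 for miR-140-3p, -1.01 to -0.31 for miR-140-5p and -1.51 to -1.24 for miR-501-3p. Summing by sequence, chosen after the data were seen, gave -0.89 for the miR-101 sequence.

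In mature RPM, the SIX2_EV minus control_EV difference was -8482 for miR-101, -2353 for miR-140, -539 for miR-501 and -472 for miR-872. With all mature names as the denominator it was -15932 for miR-101, -4297 for miR-140, -633 for miR-501 and -431 for miR-872. With all deposited reads it was -11644 for miR-101, -3261 for miR-140, -421 for miR-501 and -240.1 for miR-872. These differences are per unlike read totals, so their sizes cannot be compared between denominators. Leave-one-out ranges in mature RPM were -10520 to -6273 for miR-101, -2866 to -1796 for miR-140, -586 to -482 for miR-501 and -512 to -401 for miR-872.

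The count of features called was 0 with edgeR under every scaling, filter and left-out library, and 20 with DESeq2; the cause was not tested. Deviations of same-numbered libraries correlated at 0.21 for replicate 1, 0.07 for replicate 2 and 0.67 for replicate 3. The third libraries also shared the high mir-1285 content given above. Whether the replicate numbers pair the libraries cannot be told from these values, and the main fit left the libraries unpaired. With a replicate block 0 features were called, 45 had an unadjusted p under 0.05, and the log2 fold changes were -0.86 for each miR-101 name, -0.86 for miR-140-3p, -0.69 for miR-140-5p and -1.48 for miR-501-3p. Depth limits miR-140-5p, miR-501 and miR-872, each with at most 30 reads in any SIX2_EV library.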
